A study of Mus musculus with 6 samples.

Results

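The mitochondrially encoded genes are described here in Bv2, a mouse microglial cell line kept in culture by immortalisation. They were taken as every gene of the deposited table whose name starts with mt-, which gave 9 of 1228 genes: 6 tRNA genes and 3 genes for mRNAs. All 6 samples were Bv2 cells labelled WT, in 2 groups of 3, control and OGD/R (oxygen and glucose deprivation followed by reperfusion, labelled glucose oxygen deprivation). The OGD/R protocol gave 30 min in nitrogen, then 2 h at 1% oxygen in DMEM free of D-glucose and serum, then 24 h in standard medium with serum. That protocol also mentions an infection, 72 h before, and does not say whether it applies to these samples or to 1 group. The labels do not say whether the replicates were separate cultures, and p-values here reflect sample-to-sample spread that may be purely technical.

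Mitochondrial DNA is a small circular chromosome copied into RNA from both strands as long precursors. The precursors carry mRNAs and rRNAs with tRNAs between many of them, and cutting at the ends of the tRNAs, by RNase P and the nuclease Elac2, releases the mature RNAs. The tRNAs then read codons on mitochondrial ribosomes, which make core subunits of the respiratory chain and of ATP synthase. In the GENCODE M21 annotation of GRCm38, the build that the submitters' processing notes name, this chromosome holds 37 genes, of which 22 are for tRNAs, 2 for rRNAs and 13 for proteins. The other 28 are not analysed here.

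The 6 tRNA genes are shown as the annotated RNA, in DNA letters, with the anticodon in capitals, because their shortness bears on the counts given below. Sequences are those of GENCODE M21.
mt-Tq: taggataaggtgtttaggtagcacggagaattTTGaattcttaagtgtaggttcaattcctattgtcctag
mt-Ta: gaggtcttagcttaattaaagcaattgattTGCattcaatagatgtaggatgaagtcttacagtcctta
mt-Ty: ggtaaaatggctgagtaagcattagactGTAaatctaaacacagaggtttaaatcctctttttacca
mt-Te: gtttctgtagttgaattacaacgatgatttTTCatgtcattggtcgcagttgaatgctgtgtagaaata
mt-Tw: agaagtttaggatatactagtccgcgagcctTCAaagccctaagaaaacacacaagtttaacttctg
mt-Tt: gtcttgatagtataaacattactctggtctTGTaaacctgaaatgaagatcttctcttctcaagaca
Each anticodon was found by its letters, at the only match in the middle part of the sequence and between 2 stretches of 5 bases that can pair at 3 (mt-Tw), 4 (mt-Tt) or 5 (the other 4 genes) of 5 positions. The genes span 67 to 71 nt, and the reads were 150 nt long, per the labels, so each gene is shorter than a single read. Their GC content is 33.3% to 40.3%.

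The 6 genes stand for glutamine (mt-Tq), alanine (mt-Ta), tyrosine (mt-Ty), glutamate (mt-Te), tryptophan (mt-Tw) and threonine (mt-Tt). On the mitochondrial chromosome of GRCm38, mt-Tq lies at 3772 to 3842, mt-Ta at 5018 to 5086, mt-Ty at 5260 to 5326 and mt-Te at 14071 to 14139, all on the minus strand. On the plus strand mt-Tw lies at 4950 to 5016 and mt-Tt at 15289 to 15355. Of the annotated tRNA genes, 4 of the 8 on the minus strand and 2 of the 14 on the plus strand are among the members. The genes are packed closely: mt-Tq overlaps mt-Ti, on the other strand, by 3 nt, mt-Tw overlaps the end of mt-Nd2 by 2 nt, and mt-Ty stops 1 nt short of mt-Co1 on the other strand. The gap between mt-Te and mt-Cytb is 5 nt, and mt-Tt abuts both mt-Cytb and mt-Tp. No source used here says whether counting was strand-specific, so RNA from overlapping or opposite-strand neighbours cannot be told apart from these genes. Nor do the values tell mature tRNAs from uncut precursors. A rise of a tRNA gene here is a rise of the RNA counted at that gene.

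**Figure D1:**
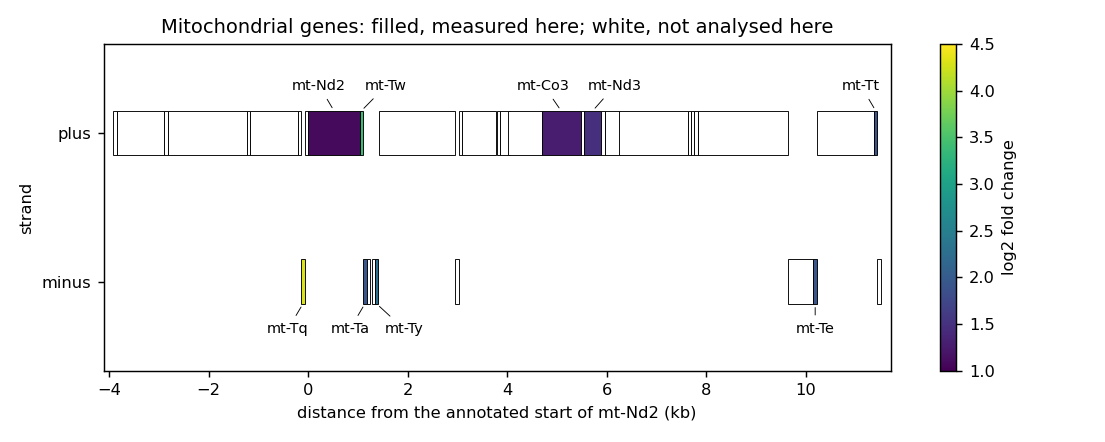
Map of the 37 annotated mitochondrial genes by strand, drawn as an opened circle, with distance from the annotated start of mt-Nd2 in kb on the x axis. Filled boxes are the 9 genes measured here, coloured by log2 fold change in OGD/R against control; mt-Tq has the largest at 4.30 and mt-Nd2 the smallest at 1.09.

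Values are FPKM (fragments per kilobase of exon, scaled to the fragments counted in the library), with 1 column per sample. Its genes had been selected for differing between these very samples: the ratio of group means nearest to no change was 1.03 among higher and -0.97 among lower genes on the log2 scale. No call here is therefore independent evidence that a gene responds to OGD/R, and what follows turns on sizes, spread and the counts behind the values. The steps between low FPKM values gave library sizes of 7627627 to 8245167 counted units in control and 8029728 to 8665535 in OGD/R samples. At these sizes 97.2% to 100% of 189 to 247 low values per sample were whole numbers of units. At the best of the other sizes compared it was 27.4% to 49.3%. Sizes well above the chosen one were not compared, and whole multiples of it would also give whole numbers. A unit may be a read pair, but the files do not say. Of 16 listed microglial markers 4 were in the table, with a summed level of 2.48 to 3.42 FPKM in control and 4.91 to 6.06 in OGD/R, so the labelled cell type could be checked on few genes only. Of these Cx3cr1 and P2ry6 rose, P2ry13 fell (limma, log2 fold change -0.53, adjusted p = 0.011) and P2ry12 was not tested. Astrocyte and lymphocyte or granulocyte lists had 0 genes in the table, and the others had 1 each: Tubb3 for neurons, at 0.56 to 1.17 FPKM in control and 0 to 0.37 in OGD/R, Cspg4 for oligodendrocyte lineage cells, at most 0.09 FPKM, and Vwf, at 3.22 to 4.40 and 1.10 to 1.74 FPKM. Their part in the results was not tested.

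All 9 mitochondrial genes were higher in OGD/R. In limma on log2(FPKM + 1), with Benjamini-Hochberg adjustment over the 852 genes with a mean of at least 1 FPKM, 9 of 9 passed an adjusted p of 0.05 and rose, where 97.3% of the tested genes were called and 46.6% were called higher. The median log2 fold change was 2.11 for the tRNA genes (range 1.88 to 4.30) and 1.26 for the mRNA genes (1.09 to 1.49). Over all tested genes it was -0.68, a median taken over genes that rose and genes that fell. Among the rises of the tested genes the tRNA genes ranked 1 to 23, mt-Nd3 40, mt-Co3 102 and mt-Nd2 173. These ranks, and the gap between the ranges of tRNA and mRNA genes, are for log2(FPKM + 1). With 0.01 in place of 1, mt-Nd3 was at 2.27, above mt-Ta (2.03), mt-Te (1.95) and mt-Tt (1.94). It stayed below mt-Ty (2.4), mt-Tq (4.82) and mt-Tw (5.73). In bulk RNA, a change in cell makeup and a change in RNA per cell cannot be told apart. In 8 of 9 genes the OGD/R values lay above all control values, mt-Nd2 being the exception, and 48.4% of the table did the same.

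Of the 9 genes, the largest rise was in mt-Tq, the gene of the tRNA for glutamine. On the log2(FPKM + 1) scale it was also the largest rise among the 852 tested genes. That scale shrinks the change of low genes. Thbs1 had a log2 fold change of 2.83, at 0.09, 0.06 and 0.02 FPKM in control and 6.27, 7.37 and 5.91 in OGD/R. mt-Tq was at 3.67, 1.71 and 1.85 FPKM in control replicates 1 to 3 and at 71.91, 51.56 and 71.52 FPKM in OGD/R. The groups were far apart and the 3 OGD/R samples close together. The mean went from 2.41 ± 1.09 to 65.0 ± 11.6 FPKM (SD, n = 3), a log2 fold change of 4.30 ± 0.25 SE (limma, adjusted p = 5.6e-05). In counted units the control values were 2, 1 and 1 and the OGD/R values 41, 31 and 44. The ratio of units per library size was 27.1, with an exact 95% interval of 10.3 to 101, so the size of the rise is known to within that range at best. Such intervals, here and below, cover counting error only.

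The gene of the tRNA for tryptophan, mt-Tw, rose as well but had the widest spread of the 9 genes. Its FPKM values were 7.79, 3.62 and 0 in control and 31.60, 59.93 and 22.39 in OGD/R. Replicate 3 was the lowest sample of each group, and in control it was listed at 0. The log2 fold change was 3.39 ± 0.80 SE (limma, adjusted p = 0.0059), and 3 tested genes of 852 had a larger residual SD. Behind it stood 4, 2 and 0 units in control (up to 3.69 units are allowed by a count of 0) and 17, 34 and 13 in OGD/R, a ratio of 9.98 with an interval of 4.34 to 28.2. Leaving out control replicate 1 gave a log2 fold change of 4.06 and leaving out control replicate 3 gave 2.50, and the call was lost with a pseudocount of 0.01, where it was 5.73 (limma, adjusted p = 0.058, the highest over the settings run).

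**Figure D2:**
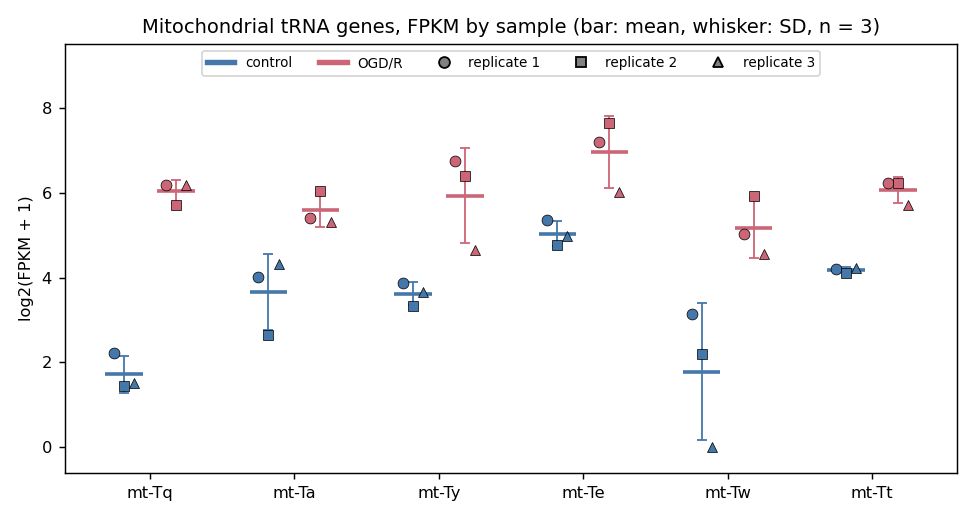
Level of the 6 tRNA genes as log2(FPKM + 1) in each sample, control in blue and OGD/R in red, with the mean as a bar and the SD as a whisker. OGD/R points lie above all control points in each gene, and OGD/R replicate 3 (triangle) is the lowest of its group in each gene but mt-Tq.

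The gene of the tRNA for tyrosine, mt-Ty, showed the clearest disagreement among OGD/R samples. It was at 13.63, 9.05 and 11.74 FPKM in control and at 105.94, 82.85 and 24.11 FPKM in OGD/R. OGD/R replicate 3 lay much nearer to the controls than to the other two. Its 14 units (exact Poisson interval 7.65 to 23.5) were below the interval of replicate 2, with 47 units (34.5 to 62.5), and of replicate 1, with 57 (43.2 to 73.9), so counting error does not span this gap. The log2 fold change was 2.30 ± 0.53 SE (limma, adjusted p = 0.0052), and 2.94 without OGD/R replicate 3.

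The gene of the tRNA for glutamate, mt-Te, had the highest mean FPKM of the 6 in each group and differed in the same way. Its FPKM values were 39.70, 26.36 and 30.40 in control and 146.19, 198.54 and 63.56 in OGD/R. Replicate 3 was again the lowest, with 38 units (26.9 to 52.2) beside 81 (64.3 to 101) and 116 (95.9 to 139). The mean went from 32.2 ± 6.84 to 136 ± 68.1 FPKM (SD, n = 3), a log2 fold change of 1.92 ± 0.41 SE (limma, adjusted p = 0.0040). The ratio of units was 4.23, with an interval of 3.12 to 5.82.

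The steadiest of the tRNA genes was mt-Tt, for threonine. It was at 17.52, 16.29 and 17.61 FPKM in control, which is 9 units in each sample, and at 74.35, 74.03 and 51.67 FPKM in OGD/R, or 40, 42 and 30 units. Both groups were tight, and this gene changed least under the alternatives. A count of 9 has an exact Poisson interval of 4.12 to 17.1, so counting error is wider than the spread of the controls. The log2 fold change of mt-Tt was 1.88 ± 0.16 SE (limma, adjusted p = 0.00012) and lay between 1.79 and 2.05 in the settings run. That SE may be too small, as the ratio of units was 3.88, with an interval of 2.53 to 6.15.

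For alanine, mt-Ta was at 15.12, 5.27 and 19.00 FPKM in control and 41.51, 65.04 and 38.47 FPKM in OGD/R. The groups did not overlap, but control replicate 2 stood well below the other controls, with 3 units against 8 and 10. The log2 fold change was 1.93 ± 0.45 SE (limma, adjusted p = 0.0056), and the ratio of units was 3.74 (2.30 to 6.36). The lower end of the interval for mt-Tq, 10.3, lay above the upper end for mt-Te, mt-Ta and mt-Tt (5.82, 6.36 and 6.15), while the intervals of mt-Tw and mt-Ty (3.72 to 10.7) overlapped that of mt-Tq. By counting error alone mt-Tq stood apart from those 3 genes, which was not tested over samples. Summed over the 6 genes, there were 51, 35 and 42 units in control and 259, 308 and 162 in OGD/R.

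**Figure D3:**
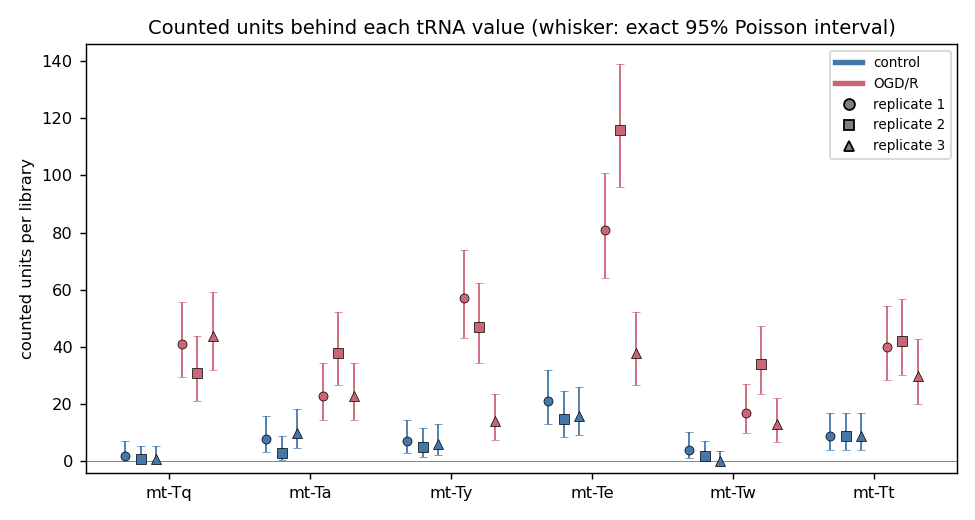
Counted units per library behind each tRNA value, with exact 95% Poisson intervals as whiskers, control in blue and OGD/R in red. Control values run from 0 to 21 units and OGD/R values from 13 to 116, and replicate 3 of OGD/R lies below the interval of replicate 2 in each gene but mt-Tq.

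The 3 mRNA genes encode subunits of respiratory chain complexes. mt-Nd2 and mt-Nd3 are core subunits of complex I, the NADH dehydrogenase, and mt-Co3 is a core subunit of complex IV, cytochrome c oxidase. On the plus strand of the mitochondrial chromosome, mt-Nd2 lies at 3914 to 4951, mt-Co3 at 8607 to 9390 and mt-Nd3 at 9459 to 9806.

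By far the most abundant member was mt-Nd2, and its call was the least firm of the 9. Its FPKM values were 1364.97, 722.41 and 743.70 in control and 2191.25, 2410.46 and 1332.74 in OGD/R. The groups overlapped: OGD/R replicate 3 was below control replicate 1. The mean went from 944 ± 365 to 1978 ± 570 FPKM (SD, n = 3), a log2 fold change of 1.09 ± 0.33 SE (limma, adjusted p = 0.016). Counting error is negligible here, with 5888 to 21185 units per sample, so the spread lies between samples: the residual SD was 0.49 on the log2 scale, beside a median of 0.18 over other genes of at least 10 FPKM. That median is for genes selected for differing between these samples, which may favour a small spread. Leaving out control replicate 2 or 3, or OGD/R replicate 1 or 2, ended the call (limma, adjusted p = 0.056, 0.055, 0.055 and 0.054, at log2 fold changes of 0.93, 0.95, 0.99 and 0.92). An exact two-sided permutation test of FPKM gave p = 0.2 for mt-Nd2 and p = 0.1 for each of the other 8 genes, the smallest that 3 samples against 3 allow.

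mt-Co3 rose from 25.13, 20.57 and 19.57 FPKM in control to 76.72, 52.57 and 37.54 FPKM in OGD/R. No values overlapped, and OGD/R replicate 3 was again the lowest of its group. The log2 fold change was 1.26 ± 0.26 SE (limma, adjusted p = 0.0032), and the 401 control and 1087 OGD/R units gave a ratio of 2.54 (2.26 to 2.85). mt-Nd3 was low, at 2.62, 1.39 and 0.38 FPKM in control and 6.44, 4.41 and 5.64 in OGD/R. Control replicate 3 held a single unit, and the 3 control samples together held 12, against 48 in OGD/R. The log2 fold change of mt-Nd3 was 1.49 ± 0.35 SE (limma, adjusted p = 0.0053), a value that the pseudocount shrinks: it was 2.15 with 0.1 and 2.27 with 0.01.

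Per length, these 3 mRNAs stood at very unequal levels. The FPKM of mt-Nd2 was 28.6 to 54.3 times that of mt-Co3 and 236 to 1960 times that of mt-Nd3 in the same sample. Both low genes have a nearly identical copy in the annotated nuclear pseudogenes of chromosome 1. Gm28437, at 24613189 to 24613971 on the minus strand, has 783 nt, all of them identical to mt-Co3, which has 784; its values are not analysed here. Gm28438, at 24612775 to 24613119 on the same strand, has 345 nt, of which 344 are identical to mt-Nd3, and 1 base differs, T3C (the base of mt-Nd3 first, position counted from 1 at the first base of its annotated sequence, then the base of Gm28438). The first 60 bases of both, with the differing base in capitals, show where the 2 genes differ.
mt-Nd3: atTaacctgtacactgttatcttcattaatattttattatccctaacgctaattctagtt
Gm28438: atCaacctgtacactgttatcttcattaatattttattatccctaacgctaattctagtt
How the authors' counting treated reads that match both places is not stated in any source used here, so the levels and fold changes of mt-Nd3, mt-Co3 and these pseudogenes are uncertain.

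Gm28438 was in the table and higher than mt-Nd3 in every sample, by 8.09 to 43.0 times in FPKM. It was at 26.85, 11.25 and 16.34 FPKM in control and 163.87, 162.94 and 108.05 FPKM in OGD/R. It rose with a log2 fold change of 2.99 ± 0.32 SE (limma, adjusted p = 0.00023), on this scale the largest rise but 3 among the tested genes. With the FPKM of Gm28438 and mt-Nd3 summed, as 29.47, 12.64 and 16.72 in control and 170.31, 167.35 and 113.69 in OGD/R, the log2 fold change was 2.94 (limma, adjusted p = 0.00023), so the value of mt-Nd3 depends on how the 2 loci are handled. The summed level was nearer to those of mt-Co3 than to those of mt-Nd2.

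A further 3 pseudogenes of the table share long stretches with mitochondrial genes that are not analysed here. Gm10925 has all of its 31-base windows in common with mt-Atp6 and Gm28439 with mt-Nd4, and both lie on chromosome 1 on either side of Gm28438, with the annotated pseudogenes Gm28437 and Gm10222 between. Gm13341, on chromosome 2, shares 48.0% of its windows with mt-Co2. They rose with log2 fold changes of 1.11, 0.93 and 0.94 (limma, adjusted p = 0.0039, 0.025 and 0.017). The call of Gm28439 was lost without control replicate 2 or 3 or OGD/R replicate 1 or 2 (limma, adjusted p = 0.073, 0.069, 0.067 and 0.076), and that of Gm13341 without OGD/R replicate 1 (0.058). Gm10925 was at 45.02, 29.69 and 47.57 FPKM in control and 70.16, 85.35 and 110.81 FPKM in OGD/R, and here OGD/R replicate 3 was the highest of its group. These genes were chosen after their values were in hand. Of the other members, mt-Nd2 shares 13.5% of its windows with the pseudogene Gm13339, mt-Ty shares 4 of its 37 windows with Cep295, a nuclear gene, and the other 5 tRNA genes share 0 with any other annotated transcript. The search covered annotated transcripts only.

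**Figure D4:**
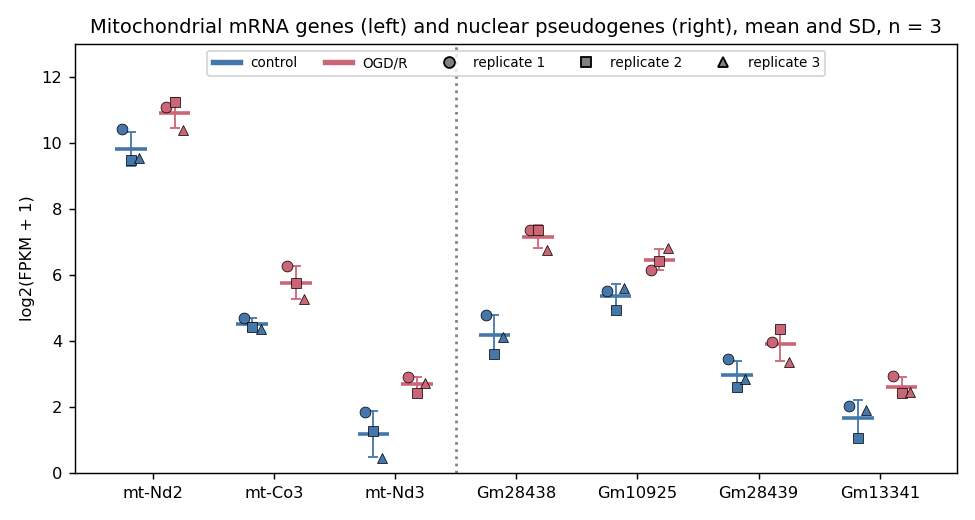
Levels of the 3 mitochondrial mRNA genes and of 4 nuclear pseudogenes that share sequence with mitochondrial genes, as log2(FPKM + 1) in each sample, with means and SD. mt-Nd2 stands far above mt-Co3 and mt-Nd3, and Gm28438 lies above its near-identical counterpart mt-Nd3 in every sample.

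As a description, each member was set against mt-Nd2 in the same sample. The genes were selected for differing, and no higher gene had a log2 ratio of group means below 1.03. mt-Nd2 was near that floor, so a rise larger than its own is partly built into the selection. Its ratio of group means was 2.10 before taking log2, and its limma log2 fold change, a slightly different measure, was 1.09. mt-Tq was at 0.269%, 0.237% and 0.249% of the FPKM of mt-Nd2 in control and at 3.28%, 2.14% and 5.37% in OGD/R. The OGD/R values were all higher. The control values were nearly equal but rest on 2, 1 and 1 units of mt-Tq, too few to show a steady ratio. For 5 of the 6 tRNA genes the OGD/R ratios lay above all control ratios (exact two-sided permutation test, p = 0.1 each, the smallest possible). Over the table, 8.56% of 1227 genes did the same. That is 105 genes, where 605 genes of the table had a higher mean in OGD/R and 623 a lower one. mt-Te went from 3.55 ± 0.596% to 6.56 ± 1.74% (SD, n = 3), mt-Tt from 1.97 ± 0.596% to 3.45 ± 0.406%, mt-Ty from 1.28 ± 0.291% to 3.36 ± 1.51% and mt-Tw from 0.357 ± 0.311% to 1.87 ± 0.547%. The groups overlapped for mt-Ta, mt-Nd3 and mt-Co3 (exact permutation p = 0.2, 0.3 and 0.5). mt-Co3 was at 2.44 ± 0.530% of mt-Nd2 in control and 2.83 ± 0.660% in OGD/R, a difference smaller than the spread between replicates.

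The samples of a group did not rank alike in all members. Among controls, replicate 1 was the highest in 7 of the 9 genes (29.1% of the tested genes) and replicate 3 in 2, while replicate 2 was the lowest in 6 and replicate 3 in 3. Among OGD/R samples, replicate 3 was the lowest in 7 of the 9 (31.3% of the tested genes) and replicate 2 in 2, while replicate 1 was the highest in 5 and replicate 2 in 4. The 9 genes took 0.144%, 0.0771% and 0.0793% of the counted units in control and 0.237%, 0.258% and 0.143% in OGD/R, most of it mt-Nd2. OGD/R replicate 3 and control replicate 1 thus had almost the same share. For the tRNA genes alone the shares stayed apart, at 0.00042% to 0.00067% in control and 0.0019% to 0.0036% in OGD/R.

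**Figure D5:**
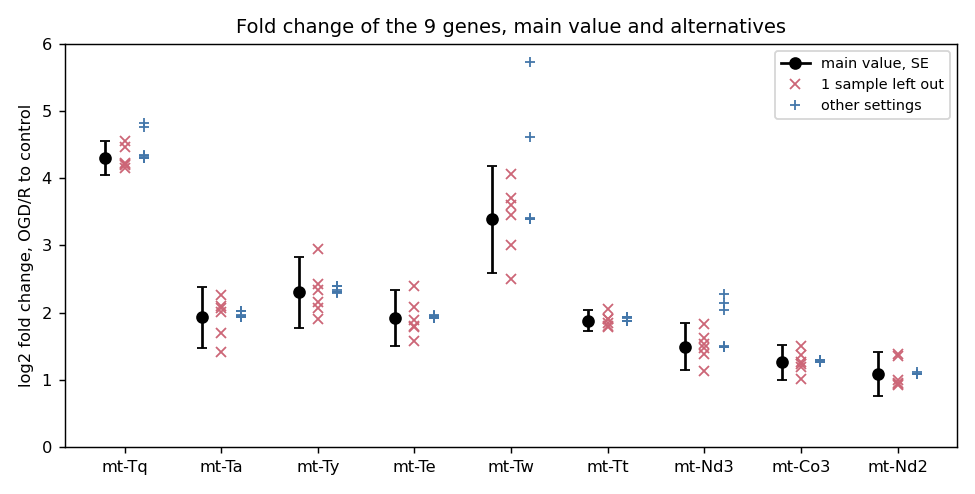
Log2 fold change of the 9 genes in OGD/R against control, with the main value and its SE in black, values with 1 sample left out as red crosses and other settings as blue plus signs. The value of mt-Nd3 summed with Gm28438, 2.94, is not drawn. mt-Tt stays within 1.79 to 2.05, while mt-Tw runs from 2.50 to 5.73.

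Few nuclear genes of the mitochondrial system were in the table. From a list of mitochondrial transcription, RNA processing and translation, Mrpl18, a protein of the large subunit of the mitochondrial ribosome, was at 7.65, 17.09 and 13.41 FPKM in control and 32.16, 30.41 and 38.80 FPKM in OGD/R (limma, log2 fold change 1.40 ± 0.27 SE, adjusted p = 0.0026). It rose, and its groups were apart. The RNase P subunits and Elac2 are not analysed here.

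From a list of nuclear genes of oxidative phosphorylation and mitochondrial biogenesis 3 were in the table, of which 2 fell and 1 was not called, where 50.7% of the tested genes were called lower. Atf5, a transcription factor of the mitochondrial unfolded protein response, fell to 14.8 ± 2.29 FPKM from 35.2 ± 2.41 (SD, n = 3; adjusted p = 0.00025 in limma). Cox6a2, the muscle-type subunit 6A of complex IV, fell from 5.95, 29.25 and 29.31 FPKM to 2.75, 1.22 and 4.92 FPKM (limma, adjusted p = 0.011), with control replicate 1 close to the OGD/R values: the log2 fold change was -2.34, and -3.05 without that sample. Ndufaf8, an assembly factor of complex I, was at 6.84 ± 3.69 and 2.83 ± 2.00 FPKM (SD, n = 3; limma, adjusted p = 0.076), and was called lower without control replicate 1 (0.018) or OGD/R replicate 3 (0.024).

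As a backdrop to such short genes, the table held 15 other genes that are shorter than the read length or annotated as small RNAs, of 67 to 324 nt. Of these 4 rose, 9 fell and 2 were not called, beside 46.6% called higher and 50.7% called lower over all tested genes, with a median log2 fold change of -1.42 (range -2.48 to 2.35); without any 1 sample 3 to 4 rose and 8 to 10 fell. They had a median of 15 units over the 3 control samples and 8 over the 3 OGD/R samples, and 2 of them, Gm22953 and Gm25238, had over 100 in each group. The 4 with the highest mean were these 2, annotated as miRNA genes, Gm22571, annotated as a snoRNA, and Gm22079, annotated as a snRNA. Gm22953 was at 276.40, 587.18 and 532.22 FPKM in control and 178.78, 139.15 and 394.21 FPKM in OGD/R, with overlapping groups (limma, adjusted p = 0.059). Gm25238 fell to 45.9 ± 16.6 FPKM from 102 ± 17.7 (SD, n = 3; adjusted p = 0.0073 in limma). The calls of the other 2 were less firm. Gm22079 fell, with a log2 fold change of -1.76 (limma, adjusted p = 0.023), which was -2.46 without control replicate 1, and the call was lost without control replicate 2 or 3 or OGD/R replicate 1 (limma, adjusted p = 0.068, 0.073 and 0.075). Gm22571 rose, with 2.35 (limma, adjusted p = 0.036); leaving out control replicate 2 gave 3.21 and leaving out control replicate 3 gave 1.35, and the call was lost without any 1 of the other 4 samples (limma, adjusted p = 0.057 to 0.094), with the replicate block (0.052) and with pseudocounts of 0.1 and 0.01 (0.078 and 0.12). Gm22953 was called lower with median scaling (limma, adjusted p = 0.039), the replicate block (0.038) and voom (0.037), and without control replicate 1 (0.025) or OGD/R replicate 3 (0.0092).

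The genes with the pattern most like the mean of the 6 tRNA genes, among 627 other tested genes with a symbol, were Tlr13, Ammecr1, Brca2 and Ppm1l. Likeness was Pearson's correlation of log2(FPKM + 1) over the 6 samples, at 0.9997, 0.9992, 0.9978 and 0.9974, given as a description. It rests mostly on the difference between the groups by which the table was picked: 224 of the 627 genes were over 0.9. Tlr13, an endosomal receptor for bacterial ribosomal RNA, was at 38.19, 31.31 and 31.77 FPKM in control and 72.39, 74.94 and 60.01 FPKM in OGD/R, with replicate 1 the highest control and replicate 3 the lowest OGD/R sample.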

How the data were processed

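RNA of 6 samples (1 ug each, per the labels' protocols) was sequenced. The authors deposited FPKM values, printed to 2 decimals, for 1228 genes in 1 table. The submitters' processing notes name GRCm38 as the build. Alignment, counting, annotation and gene selection are not described in the sources used here. GENCODE M21 placed 1227 genes and gave exon lengths, sequences and positions. Each library's size in units was set so that values below 15 units came out whole, within rounding plus 0.03.

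Genes with a mean of at least 1 FPKM were tested on the log2(FPKM + 1) scale by limma 3.58.1 (R 4.3.3), comparing the 2 groups with trended eBayes, two-sided, at a threshold of 0.05. A fold change on this scale understates the change of low genes. The fit was tested on simulated data with 200 changed genes. Shared sequence was counted as identical 31-base windows on either strand. Intervals are exact 95% Poisson intervals or, for ratios, exact conditional binomial ones. Other steps used Python 3.11.15, pandas 2.3.3, numpy 2.4.6, scipy 1.17.1 and matplotlib 3.10.9.

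The members, lists and rules were chosen with earlier results of these data known. Named are all 9 members, listed nuclear mitochondrial genes of the table (at most 6 a list; 1 result is not reported here), the 4 most abundant other short genes and the 4 genes most like the tRNA genes; the pseudogenes were added after seeing the data. Alternatives covered the pseudocount, the filter, the scaling, the eBayes settings, a replicate block, voom on the units, each sample left out and, added after seeing the data, mt-Nd3 summed with Gm28438.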

Additional observations from a re-analysis of the deposited data

How the results depend on the processing

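In limma 829 genes of the table were called, between 789 and 829 with 1 replicate left out, and 409 when a mean of 5 FPKM was required, where 423 were tested. All 6 tRNA genes were called, also with any replicate left out (6 to 6), and 5 with a pseudocount of 0.01, where mt-Tw was not. All 3 mRNA genes were called, 2 to 3 with a replicate left out, and 2 at the minimum of 5 FPKM, where mt-Nd3 was not tested. No member changed direction in the settings run. Using the replicate number as a block gave 835, 6 and 3 calls. Samples sharing a number did not deviate together in a regular way (correlations 0.428, -0.349 and 0.375, against -0.628 to 0.479 for unlike numbers). Median scaling moved the median log2 fold change of the tested genes from -0.68 to -0.65. Few units limit mt-Tq, mt-Tw and mt-Nd3, which had 4, 6 and 12 over the 3 control samples; in the tRNA genes 1 unit is worth 1.63 to 1.96 FPKM.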
